A study of Mus musculus with 8 samples.

Results

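The 9 genes described here encode the hypoxia-inducible factors and the enzymes that sense oxygen for them: Hif1a, Epas1, Hif3a, Arnt, Vhl, Egln1, Egln2, Egln3 and Hif1an. They were chosen by name, not by a rule on measured values, from 22367 protein-coding genes on the mm9 assembly (GENCODE vM1), and all 9 were found. Earlier results of these data were known when they were chosen. Histone modifications were profiled by ChIP-seq of micrococcal nuclease-digested chromatin from subcutaneous isografts of Lewis lung carcinoma (LLC), a mouse lung tumor cell line, in young adult female C57BL/6J mice. LLC-NR isografts were sensitive and LLC-R isografts resistant to VEGF-Trap, a decoy receptor that binds vascular endothelial growth factor, and the comparison between them asks how chromatin differed between sensitive and resistant tumors. H3K4me3, H3K9ac, H3K27me3 and H3K36me3 were each mapped in 1 library per line, which gives 8 libraries and no replicate. LLC-R is a subline derived from LLC by repeated selection in animals given the drug, and the sources used here do not state whether a library pooled tumors. Both groups carried the same host strain, and no drug is named for the animals that bore these isografts. Bulk isografts also contain host cells, so fewer cells of a type and less of a mark per cell cannot be told apart.

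In cells with enough oxygen, the prolyl hydroxylases encoded by Egln1, Egln2 and Egln3 mark HIF alpha subunits for capture by the Vhl ubiquitin ligase and for destruction. When oxygen falls, the alpha subunits escape, pair with Arnt and bind DNA at hypoxia response elements, whose core is A or G followed by CGTG, and turn on genes for glycolysis, angiogenesis and red cell formation, Vegfa among them. Much of this control acts on protein stability, which ChIP-seq of histones does not measure. H3K4me3 and H3K9ac mark active promoters, H3K27me3 marks Polycomb-repressed genes, and H3K36me3 is laid down over gene bodies during transcription.

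The files list peaks of 147 bp, the length of nucleosomal DNA, and give neither height nor occupancy, so every level here is a number of peaks whose midpoint lay in a region. The libraries held 5660458 to 9101721 peaks, which covered 31.3% to 50.4% of the genome. LLC-R had 1.26 times the H3K27me3 peaks and 1.36 times the H3K36me3 peaks of LLC-NR, against 0.997 times for H3K4me3 and 0.919 times for H3K9ac. Promoters were windows of 1.5 kb, with 1 kb before and 0.5 kb after the transcription start site (TSS). They held at most 9 peaks in any library. The mean promoter was 1.47 and 1.37 times a background window for H3K4me3 in LLC-NR and LLC-R, but only 0.985 to 1.07 times for H3K9ac and H3K27me3. For H3K36me3 it was 0.829 and 0.938 times. Levels of the 9 genes are therefore given as numbers and as percentiles among all genes of the same library. With 1 library per line and mark there is no estimate of the spread between tumors, no p-value is given, and intervals cover counting error only.

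Most of the 9 promoters carried at least the average number of H3K4me3 peaks. At or above the mean of all promoters were 8 of 9 members in LLC-NR, where 63.8% of all promoters were. In LLC-R 8 of 9 were too, against 58.8% of all promoters. For H3K9ac, 6 members reached the mean in LLC-NR (62.3% of all promoters) and 8 in LLC-R (70.5%). The repressive mark covered a partly different set, without Vhl, Egln1 and Egln2 in LLC-NR. For H3K27me3, 6 members reached the mean in LLC-NR (56.6% of all promoters) and 8 in LLC-R (58.8%). The median of the members moved from 5 to 7 peaks, the 54.3 and 84.1 percentiles. Scaled by the peaks of each library, however, the median log2 ratio of LLC-R over LLC-NR was -0.066 at the members and -0.070 at all promoters. By that ratio, 3 of the 9 members were above 0, so the typical member changed as all promoters did. With a narrower window of 0.5 kb on either side of the TSS, 3 members and not 6 reached the H3K27me3 mean in LLC-NR. By CpG content, 8 members had CpG-rich promoters (HCPs), the class of 53.9% of all promoters, and Hif3a had an intermediate one (ICP).

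**Figure D1:**
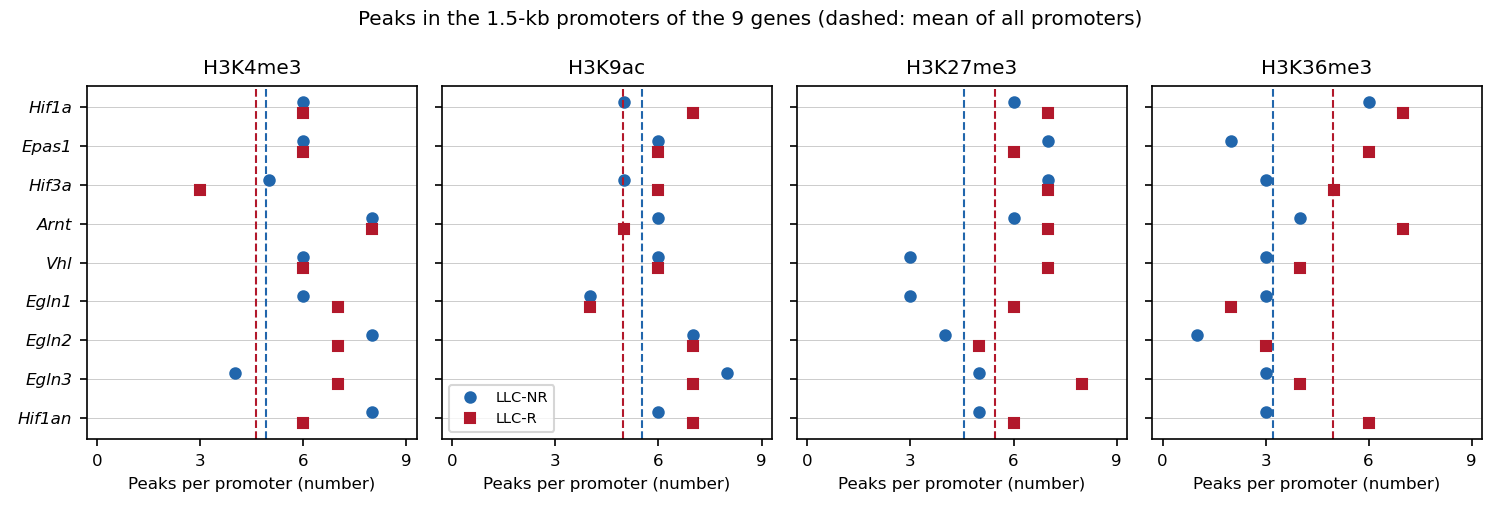
Number of peaks in the 1.5-kb promoter of each of the 9 genes, with 1 panel per histone mark, blue circles for LLC-NR and red squares for LLC-R. Dashed lines give the mean over all 22367 promoters of each library. Arnt has 8 H3K4me3 peaks in both lines, and Vhl has 3 H3K27me3 peaks in the blue and 7 in the red series.

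Hif1a encodes HIF-1 alpha, the oxygen-regulated subunit made by most cell types. The gene lies at chr12:75002362-75048517 on the plus strand, and the TSS used is at position 75008891. Its promoter held 6 H3K4me3 peaks in both lines, which ranked at the 64.2 percentile in the sensitive and the 74.4 percentile in the resistant tumor. H3K9ac peaks numbered 5 in LLC-NR against 7 in LLC-R, the 28.4 and 92.1 percentiles, and H3K27me3 peaks numbered 6 and 7, the 76.1 and 84.1 percentiles. Of these 6 values, only that of H3K9ac in LLC-NR was below the mean promoter. The promoter also held 6 and 7 H3K36me3 peaks, the 95.6 and 92.2 percentiles, higher than at any other member in LLC-NR and equal to Arnt in LLC-R. An annotated transcript starts 6.529 kb upstream, which places the promoter window inside an intron of that transcript, and the window at this upstream TSS held 6 and 5 H3K4me3 peaks.

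The stretch below is shown because one peak position at Hif1a was shared by all 8 libraries and ended just before the matches to the HIF core. The midpoints of the 8 peaks lay at -285 to -278 bp from the TSS, a span of 7 bp. The first 147 bases are that peak position, and the capitals mark 2 stretches that match ACGTG, of which the first, CACGTG, matches on both strands. The sequence runs 5′ to 3′ along the gene from -354 to -57 bp of the TSS, chr12:75008537-75008834 of mm9, plus strand.
Hif1a: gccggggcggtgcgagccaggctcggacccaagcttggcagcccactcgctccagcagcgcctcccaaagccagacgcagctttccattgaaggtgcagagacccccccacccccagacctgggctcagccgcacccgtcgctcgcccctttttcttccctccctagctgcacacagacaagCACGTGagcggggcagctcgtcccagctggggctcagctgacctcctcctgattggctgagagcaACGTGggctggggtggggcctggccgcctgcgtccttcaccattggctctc
Past the shared position, a peak covered the matches at -172, -171 and -107 bp in 1 of 8 libraries, LLC-R H3K9ac, and no library had a peak over the remaining match in the promoter, GCGTG on the opposite strand at -398 bp.

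Epas1 encodes HIF-2 alpha, the paralog known from endothelial cells and from control of erythropoietin. It lies at chr17:87153247-87232750 on the plus strand with a single annotated TSS. H3K4me3 and H3K9ac each gave 6 promoter peaks in each line. H3K27me3 peaks numbered 7 in LLC-NR against 6 in LLC-R, the 92.4 and 57.1 percentiles. Epas1 was the only member that lost an H3K27me3 promoter peak between LLC-NR and LLC-R. H3K36me3 peaks numbered 2 and 6.

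Hif3a encodes HIF-3 alpha, whose short splice forms can oppose the other alpha subunits. It lies at chr7:17616856-17647776 on the minus strand. It had the fewest H3K4me3 promoter peaks of the 9 genes in LLC-R, with 5 in LLC-NR against 3 in LLC-R, the 44.6 and 19.4 percentiles. Its H3K9ac peaks numbered 5 and 6 and its H3K27me3 peaks 7 and 7, the 92.4 and 84.1 percentiles. At another annotated TSS 5.748 kb downstream, H3K4me3 peaks numbered 5 in both lines, so the lower LLC-R number was at the upstream start. The promoter of Hif3a is shown as a contrast with Hif1a, because its core matches lay under peaks. The capitals mark GCGTG on the opposite strand, read here as CACGC, at -230 bp, and GCGTG on the gene strand at -186 bp. The sequence is chr7:17647884-17648030 of mm9, minus strand, -254 to -108 bp from the TSS.
Hif3a: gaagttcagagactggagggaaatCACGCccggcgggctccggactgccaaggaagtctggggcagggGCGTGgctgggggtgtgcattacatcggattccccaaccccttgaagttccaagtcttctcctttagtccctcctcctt
Peaks covered each of these matches in 7 of 8 libraries, LLC-NR H3K4me3 being the exception, and a GCGTG match at -745 bp was covered in all 8.

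Arnt encodes HIF-1 beta, the constant partner of every alpha subunit. It lies at chr3:95238310-95301162 on the plus strand. Its promoter had 8 H3K4me3 peaks in both lines, the 97.0 and 98.9 percentiles and the highest LLC-R number of the 9. H3K9ac peaks numbered 6 and 5, H3K27me3 peaks 6 and 7, and H3K36me3 peaks 4 and 7. No peak of any library lay over the TSS of Arnt. The bases just upstream are shown because they hold the only core match of Arnt that was nearly free of peaks, GCGTG at -27 bp, in capitals. The sequence is chr3:95238210-95238309 of mm9, plus strand, the 100 bases before the TSS.
Arnt: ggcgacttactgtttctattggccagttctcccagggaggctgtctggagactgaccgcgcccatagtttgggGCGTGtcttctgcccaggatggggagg
This match was under a peak in 1 library, LLC-R H3K27me3, whereas ACGTG at -476 bp was under a peak in all 8 and ACGTG at 495 bp in 7. A separate transcript of Arnt starts 41.709 kb downstream, where H3K4me3 peaks numbered 2 in LLC-NR against 8 in LLC-R, the 10.7 and 98.9 percentiles. At that internal start the other marks differed less, with 7 and 6 H3K9ac peaks, 4 and 6 H3K27me3 peaks, and 6 and 7 H3K36me3 peaks. It was singled out after its values were seen.

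Egln1 encodes PHD2, the main oxygen sensor of most cells. It lies at chr8:127432496-127473154 on the minus strand, and its promoter held 178 CpG dinucleotides, the 99.6 percentile of all promoters. H3K4me3 peaks numbered 6 (LLC-NR) and 7 (LLC-R), the 64.2 and 91.8 percentiles. H3K9ac peaks numbered 4 in both lines, the 15.1 and 21.9 percentiles and the lowest of the 9 genes in each line. H3K27me3 peaks numbered 3 and 6, the 19.4 and 57.1 percentiles. Egln1 thus carried an average or high number of H3K4me3 peaks with few H3K9ac peaks. The 150 bases before its TSS are shown because they held few peaks over the core matches and are dense in CpG, with 32 CpG dinucleotides. The capitals mark GCGTG at -126 bp and ACGTG at -68 bp, and the sequence is chr8:127473155-127473304 of mm9, minus strand.
Egln1: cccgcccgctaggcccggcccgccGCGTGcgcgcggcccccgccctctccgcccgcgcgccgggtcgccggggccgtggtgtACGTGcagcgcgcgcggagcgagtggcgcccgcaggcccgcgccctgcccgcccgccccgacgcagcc
The match at -126 bp was under a peak in 2 libraries, H3K27me3 of either line, and the match at -68 bp in 1 library, LLC-NR H3K4me3. The other matches of Egln1, at -770 and 225 bp, were each under a peak in 5 libraries.

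Egln2 encodes PHD1. It lies at chr7:27943677-27951821 on the minus strand and overlaps Cyp2t4 on the other strand by 11 bp. Its promoter had 8 H3K4me3 peaks in LLC-NR against 7 in LLC-R, and 7 for H3K9ac in each. H3K27me3 peaks numbered 4 and 5, the 34.3 and 30.6 percentiles. It was the only member that stayed below the mean promoter for H3K27me3 in both lines. It also held the most core matches, 7, of which ACGTG at -48 bp lay under a peak in 5 libraries.

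Egln3 encodes PHD3, itself a gene that HIF induces in many cells. It lies at chr12:55279968-55304847 on the minus strand. H3K4me3 peaks numbered 4 in LLC-NR against 7 in LLC-R, the 29.9 and 91.8 percentiles. H3K9ac peaks were many in both lines, 8 and 7, and H3K27me3 peaks numbered 5 and 8, the 54.3 and 97.6 percentiles. LLC-R thus had more peaks of H3K4me3 and of the repressive mark together. The position shown was covered at nearly the same place in 7 of 8 libraries, with midpoints at -219 to -201 bp from the TSS, and it holds ACGTG at -243 bp, in capitals. The sequence is chr12:55304982-55305128 of mm9, minus strand, and it has 3 CpG dinucleotides.
Egln3: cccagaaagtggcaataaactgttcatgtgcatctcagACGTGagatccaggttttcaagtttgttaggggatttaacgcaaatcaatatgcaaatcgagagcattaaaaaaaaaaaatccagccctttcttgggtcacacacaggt
Unlike the matches of Hif1a and the match of Egln1 at -68 bp, this match was under a peak in 7 libraries, all but LLC-NR H3K36me3.

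Hif1an encodes FIH, the asparaginyl hydroxylase that blocks the HIF transactivation domain in normal oxygen. It lies at chr19:44637340-44650764 on the plus strand. H3K4me3 peaks numbered 8 and 6, H3K9ac peaks 6 and 7, H3K27me3 peaks 5 and 6, and H3K36me3 peaks 3 and 6. As at Arnt, no library had a peak over the TSS. Hif1an was the only member with more than 1 position shared by all 8 libraries: the midpoints lay at -626 to -609 bp and at 481 to 489 bp from the TSS. The downstream position is shown because it sits at the edge of a coding exon, with 28 bases of intron and then 119 bases of exon. It has 3 CpG dinucleotides, in capitals. The sequence is chr19:44637752-44637898 of mm9, plus strand.
Hif1an: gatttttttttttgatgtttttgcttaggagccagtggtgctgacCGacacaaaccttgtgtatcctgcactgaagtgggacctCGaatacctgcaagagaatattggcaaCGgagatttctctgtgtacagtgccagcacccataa

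Vhl encodes the substrate receptor of the ubiquitin ligase that removes hydroxylated alpha subunits. It lies at chr6:113573953-113581627 on the plus strand. H3K4me3 peaks numbered 6 in each line, and H3K9ac peaks also 6 in each line. For H3K27me3 there were 3 in the LLC-NR library against 7 in that of LLC-R, the 19.4 and 84.1 percentiles, the widest change in H3K27me3 percentile of the 9 promoters. H3K36me3 peaks numbered 3 and 4. All 4 core matches of Vhl lay downstream of the TSS, from 125 to 144 bp, and each was under a peak in 4 or 5 libraries.

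Promoters were sorted into states from these numbers. A promoter was active when H3K4me3 or H3K9ac reached the mean of all promoters and H3K27me3 did not, and bivalent when H3K27me3 reached it as well. In LLC-NR, Vhl, Egln1 and Egln2 were active and the other 6 members bivalent, while 29.8% of all promoters were active and 48.4% bivalent. In LLC-R, Egln2 was active and 8 members were bivalent, against 28.3% and 53.1% of all promoters. Vhl and Egln1 therefore passed from active to bivalent, which 40.5% of all promoters that were active in LLC-NR also did. The repressive state, with H3K27me3 alone, held none of the 9, against a share of 8.17% (LLC-NR) and 5.70% (LLC-R) among all genes. No member lacked all 3 marks at the mean either, against 13.6% (LLC-NR) and 12.9% (LLC-R). With only 9 members and shares this small, their absence from these states does not set them apart.

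Over gene bodies, H3K36me3 density ranged from low on Hif3a to high on Egln3, Arnt and Hif1a. Peak density was lowest on Hif3a, with 1.84 peaks per kb in LLC-NR (95% interval 1.40 to 2.39) and 3.49 in LLC-R (2.87 to 4.22), the 15.5 and 24.4 percentiles. It was highest in LLC-NR on Egln3, with 4.22 and 4.38 peaks per kb, the 97.2 and 90.5 percentiles. Arnt followed with 4.14 and 4.22 and Hif1a with 4.05 and 4.35 peaks per kb. The intervals of Egln3, Arnt and Hif1a overlapped one another, so their order is not resolved, and in LLC-NR all 3 lay above that of Hif3a. In LLC-R the highest density was on Egln1, 4.40 peaks per kb after 3.76 in LLC-NR, the 91.7 and 80.4 percentiles. Densities on Hif1an were 3.95 and 4.10, on Vhl 3.39 and 3.91, on Egln2 3.07 and 4.05, and on Epas1 3.03 and 3.75 peaks per kb. At or above the median gene were 8 members in LLC-NR and 6 in LLC-R, where 50.0% of all genes are by construction. Hif3a was below it in both lines, and Epas1 and Vhl were below it in LLC-R. For H3K4me3 the counts were 8 and 7 members, for H3K9ac 8 and 8, and for H3K27me3 4 and 4.

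H3K27me3 ordered the gene bodies differently. Epas1 had the highest density in both lines, 4.11 and 4.33 peaks per kb, the 91.3 and 87.5 percentiles, and Hif3a had 3.78 and 4.07, the 80.2 and 70.5 percentiles. Vhl and Egln2 had the lowest values in both lines, with 1.56 and 3.26 peaks per kb on Vhl and 1.60 and 3.44 on Egln2. These were at or below the 26.8 percentile in each library. In LLC-NR the intervals of Vhl (0.81 to 2.73) and Egln2 (0.85 to 2.73) lay below that of Epas1 (3.68 to 4.58). In LLC-R those of Vhl (2.11 to 4.81) and Egln2 (2.28 to 4.97) overlapped that of Epas1 (3.88 to 4.81), so the order is not resolved there. Hif1a had 3.01 and 4.20 peaks per kb, the 58.7 and 79.4 percentiles, below Hif3a in LLC-NR and above it in LLC-R with intervals that overlapped. Hif3a thus paired a high H3K27me3 density with a low density of H3K36me3 and of H3K4me3, the last at 1.78 and 2.10 peaks per kb, the 15.3 and 21.6 percentiles. Among markers of host cell types, 8 of 8 endothelial markers in LLC-NR and 7 of 8 in LLC-R reached the median gene body for H3K27me3, and 2 and 1 of 8 did for H3K36me3. For leukocyte markers these counts were 6 and 4 of 8 and 2 and 5 of 8, and for fibroblast markers 5 and 6 of 6 and 4 and 5 of 6.

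H3K4me3, usually a mark of promoters, was dense over the whole bodies of Egln3 and Hif1a. Egln3 had 3.86 and 3.90 peaks per kb, and Hif1a had 3.73 (3.19 to 4.33) and 3.68 (3.15 to 4.28), where the median gene had 2.69 and 2.68. Among the 6262 genes within 2-fold of the length of Hif1a, both values were at the 99.5 percentile. With the body cut into 5 equal segments, H3K4me3 density on Hif1a in LLC-NR was 4.22 peaks per kb in the segment at the start of the gene and 3.79 in the segment at its end, while the mean over all genes of at least 5 kb went from 3.10 to 2.49. On Egln2 it went from 5.52 to 2.46, but that gene is 8.145 kb long against 46.156 kb for Hif1a. Its body held 30 H3K4me3 peaks in LLC-NR against 172 on Hif1a, so its segments are short and the 2 courses are not directly comparable. The lincRNA Gm15283 on the other strand overlaps 45.6% of the Hif1a body, and the peaks carry no strand, so marks of the 2 genes cannot be told apart there. H3K9ac densities were close together, from 3.17 peaks per kb on Hif3a in LLC-R to 4.44 on Hif1a in LLC-NR. Among genes of like length, H3K9ac on Hif1a was nevertheless at the 98.3 and 99.3 percentiles, and on Egln3 at 62.7 and 97.1. On Hif1a, H3K36me3 was at the 89.1 and 92.1 percentiles of these genes and H3K27me3 at 63.1 and 83.4. The high rank of Hif1a was therefore not particular to H3K4me3.

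**Figure D2:**
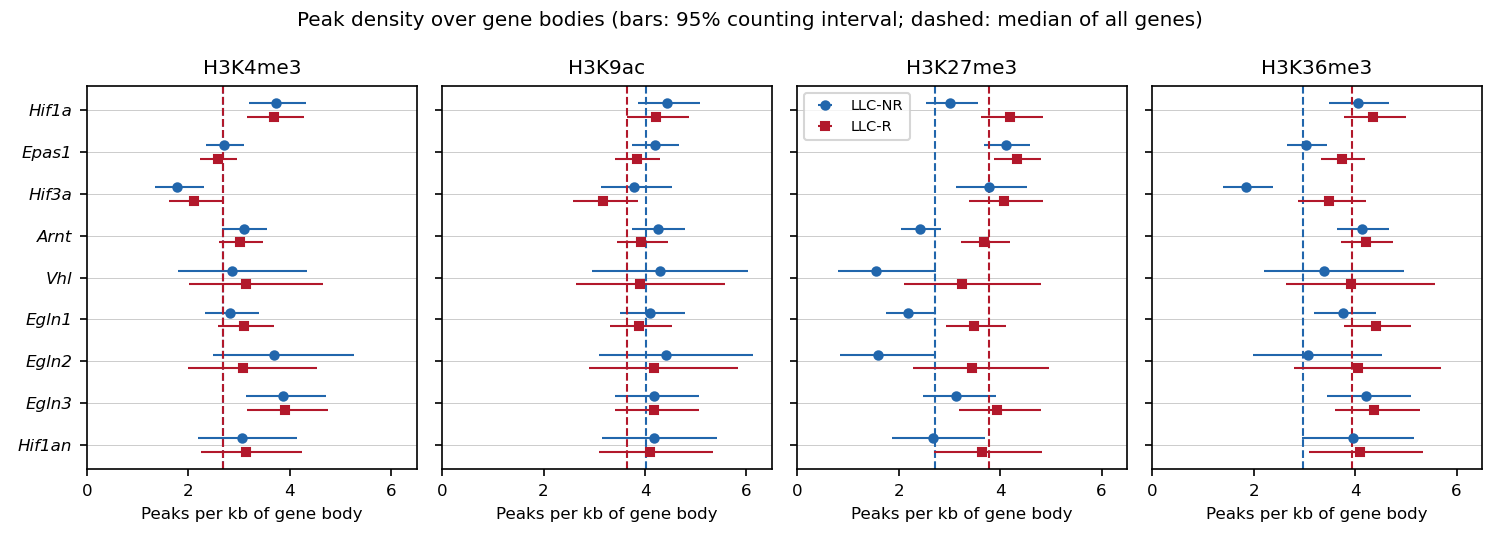
Peaks per kb of gene body for the 9 genes, with 1 panel per histone mark, blue circles for LLC-NR and red squares for LLC-R. Bars are exact Poisson 95% intervals, which cover counting error only, and dashed lines are the medians of all genes. Hif3a lies left of the medians for H3K4me3 and H3K36me3, and the short genes Vhl and Egln2 have the widest intervals.

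Unscaled promoter numbers were compared between the lines first. For H3K4me3, 2 members had more peaks in LLC-R, 4 the same number and 3 fewer, against 25.6%, 30.9% and 43.5% of all promoters. For H3K9ac, 3 had more, 4 the same and 2 fewer, against 19.2%, 30.3% and 50.5%. For H3K27me3, 7 had more, 1 the same and 1 fewer, against 58.5%, 26.5% and 15.0%, and for H3K36me3, 8 had more, 0 the same and 1 fewer, against 78.0%, 16.2% and 5.77%. The members followed all promoters in direction for H3K27me3 and H3K36me3, the marks with more peaks in the LLC-R libraries.

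Ratios of LLC-R over LLC-NR were then taken on the log2 scale, with each number divided by the total of its library. The limit was a log2 ratio of 0.58 in either direction for promoters, a 1.5-fold difference, and 0.32 for gene bodies. At the promoters, H3K4me3 was past the limit upward at Egln3, with a log2 ratio of 0.74, and downward at Hif3a, with -0.66, where 7.28% of all promoters were past it upward and 10.5% downward. Among the 2812 promoters that had 4 H3K4me3 peaks in LLC-NR, as Egln3 had, its 7 peaks in LLC-R were at the 98.9 percentile. Both H3K4me3 calls rested on few peaks. That of Egln3 was lost when any overlap was counted in place of midpoints and in the window of 0.5 kb on either side, and that of Hif3a was lost with a pseudocount of 1 peak and with scaling by reads. For H3K9ac no member was past the limit, against 4.06% of all promoters upward and 6.80% downward.

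For H3K27me3, Vhl at 0.80 and Egln1 at 0.59 were past the promoter limit upward and no member downward, against 10.8% and 6.71% of all promoters. Vhl kept this call with a pseudocount of 1 peak (0.67), in the narrower window (0.59) and with any overlap (0.79), and Egln1 lost it in each. Egln3, from 5 to 8 peaks, had a ratio of 0.32. For H3K36me3, Epas1 at 1.04 and Egln2 at 0.96 were past it upward and Egln1 at -0.85 downward, against 23.3% and 5.77% of all promoters. Among promoters with the same LLC-NR number, the LLC-R number was at the 82.1 percentile for Epas1, 23.8 for Egln2 and 0.84 for Egln1. Egln2, from 1 to 3 peaks, thus ended below the median of 4 peaks of the 1933 promoters with its LLC-NR number. The counting interval of the ratio included 0 at all 9 promoters for all 4 marks. These intervals treat peaks as independent counts, whereas peaks did not overlap and a promoter held at most 9. With so few peaks the intervals are wide, so including 0 does not show that the lines were alike.

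Over gene bodies, H3K27me3 was past the limit upward on Vhl, from 12 to 25 peaks with a log2 ratio of 0.70, on Egln2, from 13 to 28 peaks with 0.75, and on Egln1, from 89 to 142 peaks with 0.34. Of all gene bodies 26.3% were past it upward and 14.4% downward, and the intervals of these 3 ratios included 0. Epas1 went the other way, with a ratio of -0.26 and an interval from -0.48 to -0.033 that did not include 0, although it was not past the limit. For H3K36me3, Hif3a was past the limit upward, from 57 to 108 peaks with a ratio of 0.47 and an interval from 0.0025 to 0.97. Arnt at -0.42, Hif1an at -0.39, Egln3 at -0.39 and Hif1a at -0.34 were past it downward, against 12.5% of all gene bodies upward and 23.2% downward. Of these 4, the intervals of Arnt (-0.67 to -0.16) and Hif1a (-0.63 to -0.044) did not include 0. The median of all gene bodies was -0.12, which the interval of Hif1a included and that of Arnt did not. Their unscaled numbers were higher in LLC-R, 260 and 265 peaks on Arnt and 187 and 201 on Hif1a. These 4 genes were at or above the 88.4 percentile in LLC-NR. No member was past the limit for H3K4me3, where 8.93% of all gene bodies were upward and 9.36% downward, or for H3K9ac, where 4.90% and 5.27% were.

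The direction of these ratios depended on how libraries were scaled. With division by uniquely mapped reads in place of peaks, the median of all promoters moved from -0.070 to -0.84 for H3K27me3 and from -0.068 to 0.61 for H3K9ac. For H3K36me3 the median of all gene bodies moved from -0.12 to -0.89. Members moved by the same amount: the H3K27me3 ratio of Vhl became 0.027 at the promoter and -0.071 over the body, that of Egln1 became -0.18 and -0.43, and that of Egln2 over the body -0.022. The H3K36me3 ratio of Hif3a over its body became -0.30. Members with a ratio above 0 over the gene body went from 6 to 0 for H3K27me3, from 1 to 0 for H3K36me3, from 6 to 9 for H3K9ac and from 5 to 9 for H3K4me3. Relative to the median gene these members kept their places, since 1 factor per library was applied to every gene.

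Peak positions were compared between libraries around the TSS. A position was taken as shared when the midpoints of all 8 libraries lay within 20 bp of one another, a span chosen after positions had been seen. Hif1a and Hif1an had such a position within 1 kb of the TSS, 2 of 9 members, while 6.33% of all promoters and 8.21% of CpG-rich promoters did. With at least 7 of 8 libraries, Arnt, Egln1 and Egln3 were added, 5 of 9 members against 24.5% of all promoters. At Arnt these positions lay at -322 to -307 bp and at 934 to 951 bp from the TSS, and at Egln1 at -415 to -398 bp. Epas1 had at most 5 libraries in register at any position, the fewest of the 9 genes. Positions were close between lines as well: the median distance from an LLC-NR peak to the nearest LLC-R peak of the same mark was 11.5 bp at the members and 43 bp at all promoters for H3K4me3. It was 17 and 38 bp for H3K9ac, 30 and 42 bp for H3K27me3, and 31 and 45 bp for H3K36me3. Libraries of different antibodies thus shared positions at these genes, and no input library was used here to show which positions any chromatin would give.

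**Figure D3:**
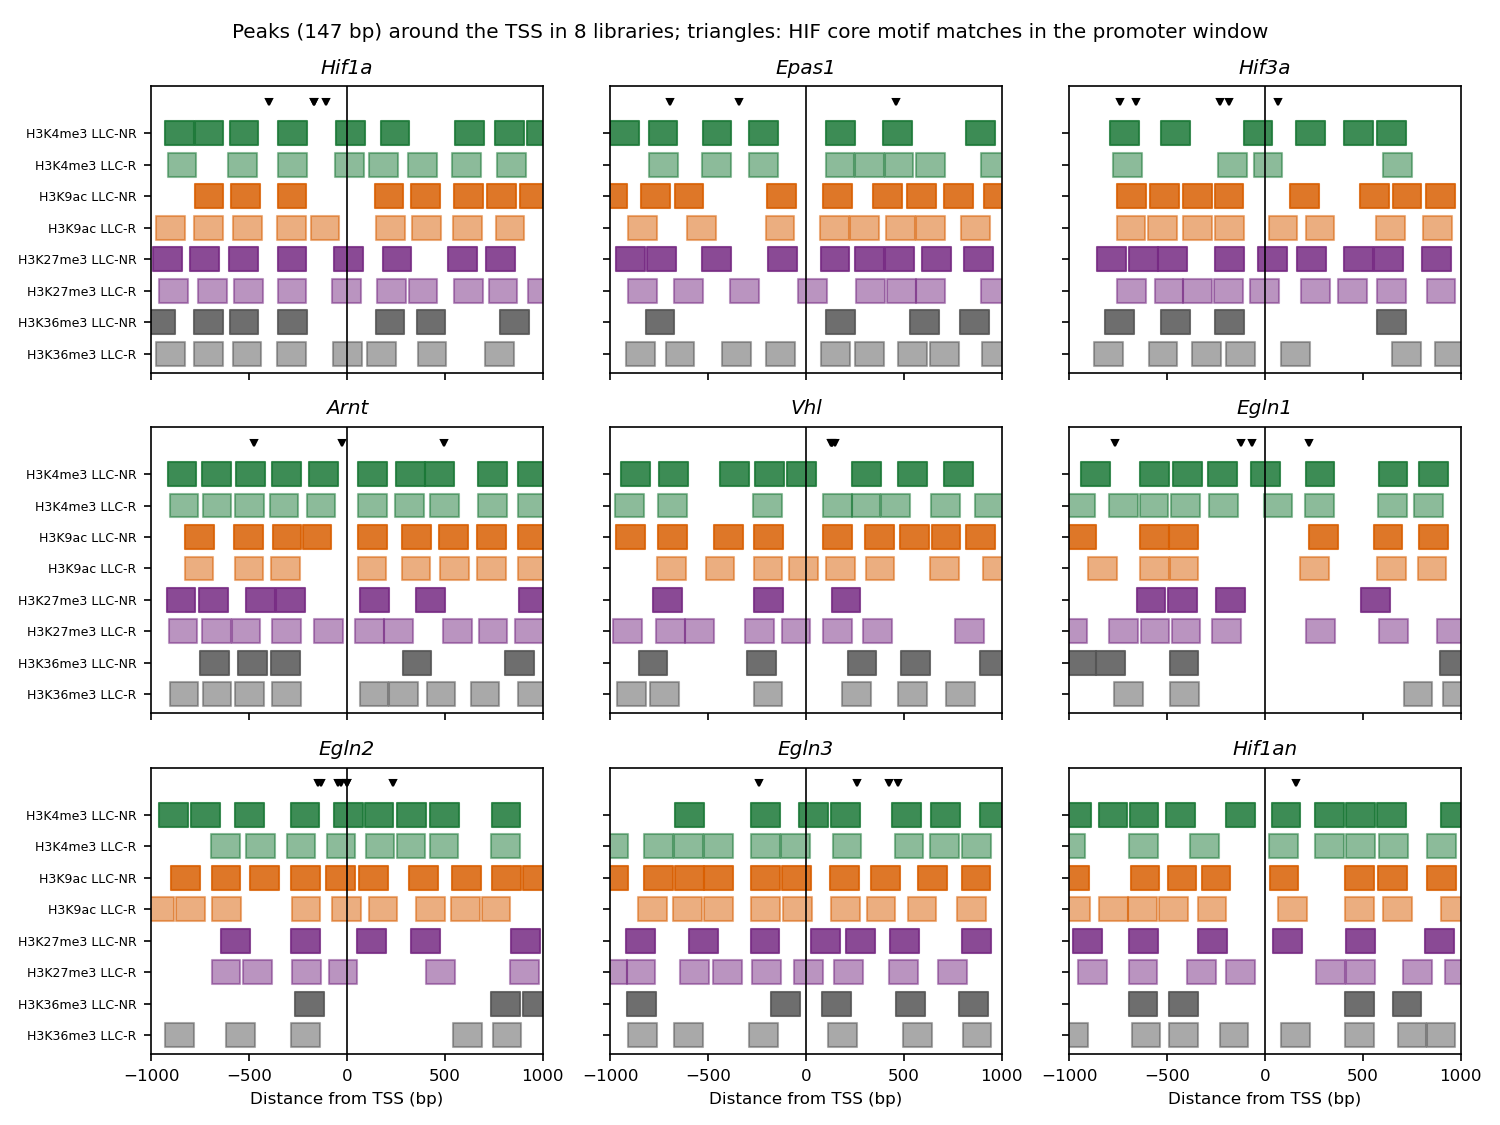
Peaks of 147 bp within 1 kb of the TSS of each gene, 1 row per library, colored by mark with LLC-R in the lighter shade; the vertical line is the TSS and triangles are matches to the HIF core in the promoter window. At Hif1a the 8 rows have a peak in one column, with midpoints at -285 to -278 bp, and at Arnt and Hif1an no peak lies over the TSS.

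Matches to ACGTG or GCGTG on either strand were counted in the 1.5-kb promoters. All 9 members held at least 1, as did 84.0% of all promoters (59.4% for ACGTG and 71.2% for GCGTG), so their presence does not set the members apart. The members differed in whether the matches lay under peaks. Over all 72870 matches in all promoters, a match was under a peak in 3.94 of 8 libraries on average, and 15.4% of matches were under a peak in 0 or 1 library. All 4 matches of Hif1a were in that group, as were Arnt at -27 bp and Egln1 at -68 bp. The 4 are not independent: those at -172 and -171 bp are 1 CACGTG counted on both strands. These and the match at -107 bp lay under the same LLC-R H3K9ac peak. By contrast, every match of Hif3a, Vhl, Egln2, Egln3 and Hif1an was under a peak in 3 or more libraries. Taken over all 9 promoters, matches under a peak in 0 or 1 library were about as frequent as in all promoters. The members as a group thus did not stand out. Between -200 and -100 bp, where 3 of the 4 Hif1a matches lay, 19.3% of the matches of all promoters were under a peak in 0 or 1 library. A match is a string of letters and was not tested as a site.

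**Figure D4:**
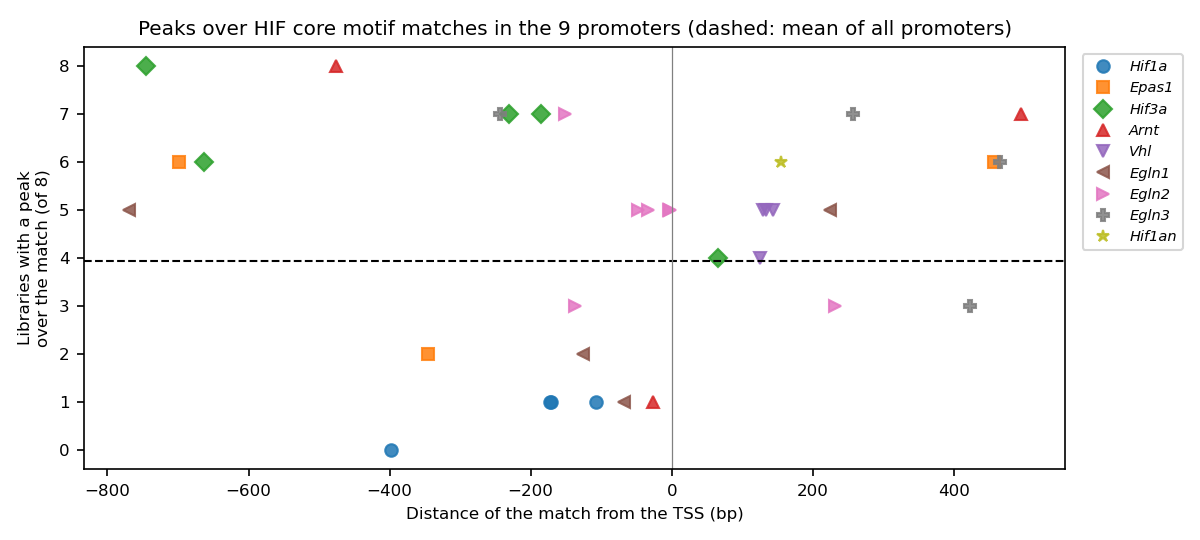
Matches to the HIF core in the 9 promoters, placed by distance from the TSS in bp on the horizontal axis and by the number of libraries (of 8) with a peak over the match on the vertical axis, with 1 symbol per gene. The dashed line is the mean of 3.94 libraries over all promoters, and the Hif1a matches lie at 0 or 1.

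Other genes of the pathway were counted in the same way. Of 13 HIF partners and parts of the degradation machinery, 11 in LLC-NR and 12 in LLC-R reached the mean promoter for H3K4me3, against 63.8% and 58.8% of all promoters, and 10 and 11 reached the median gene body for H3K36me3, against 50.0% of all genes. Among them, Tceb1 (elongin C) and Cul2, which form the ubiquitin ligase with Vhl, had 6 and 6 and 6 and 7 H3K4me3 promoter peaks. Their H3K27me3 promoter peaks went opposite ways, from 5 to 3 at Tceb1 and from 5 to 8 at Cul2. The coactivators Ep300 and Crebbp had 4 and 4 and 5 and 5 H3K27me3 promoter peaks. Over gene bodies, 6 of the 13 were past the limit upward for H3K27me3 and none downward, against 26.3% and 14.4% of all gene bodies. For H3K36me3, 2 were past it upward and 5 downward, against 12.5% and 23.2%.

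Of 24 HIF target genes, 23 in LLC-NR and 21 in LLC-R reached the mean promoter for H3K4me3 (63.8% and 58.8% of all promoters), and 20 and 22 reached the median gene body for H3K36me3 (50.0% of all genes). For H3K27me3, 13 and 11 of the 24 promoters reached the mean (56.6% and 58.8% of all promoters), while the members went from 6 to 8 of 9. Vegfa, the growth factor that VEGF-Trap binds, had promoter numbers of 6 and 5 for H3K4me3, 6 and 6 for H3K9ac and 6 and 4 for H3K27me3. It went from bivalent in LLC-NR to active in LLC-R, the opposite course to Vhl and Egln1. Bnip3, a mitophagy receptor, had the same course with 5 H3K27me3 peaks in both lines, since the mean promoter was 4.56 for LLC-NR but 5.46 for LLC-R. The partners Tceb1 and Crebbp also went from bivalent to active, Crebbp with 5 H3K27me3 peaks in both lines. Ep300 stayed active and Cul2 stayed bivalent. The share of all promoters that went from bivalent to active was not counted. The lactate dehydrogenase gene Ldha was active in both lines, with 3 and 5 H3K27me3 peaks, and the glucose transporter gene Slc2a1 was bivalent in both, with 5 and 6. Over gene bodies, 10 of 24 targets were past the limit upward for H3K27me3 and 2 downward, against 26.3% and 14.4% of all gene bodies. For H3K36me3, 0 were past it upward and 6 downward, against 12.5% and 23.2%, so the downward share was near that of all genes.

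Over the 8 libraries, with promoter percentiles for H3K4me3, H3K9ac and H3K27me3 and gene body percentiles for H3K36me3, the members lay at different Euclidean distances from Hif1a. Hif1an was the nearest member, at 59.8 percentile points, with 610 genes nearer to Hif1a than it was, and Hif3a was the farthest, at 119, with 13919 genes nearer.

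Markers of other cells were counted for comparison. Lung epithelial markers, chosen because the labels give lung as the tissue although the tumors grew under the skin, reached the mean H3K4me3 promoter in 5 of 8 genes in each line and the median H3K36me3 gene body in 4 and 6 of 8. Leukocyte markers reached the mean H3K4me3 promoter in 5 and 3 of 8 genes and the median H3K36me3 body in 2 and 5 of 8, and fibroblast markers in 6 and 4 of 6 and in 4 and 5 of 6. Endothelial markers reached the mean H3K4me3 promoter in 4 and 3 of 8. Past the promoter limit downward for H3K4me3 were 3 of 8 leukocyte, 2 of 8 endothelial, 1 of 6 fibroblast and 0 of 8 lung epithelial markers and, among the members, Hif3a, against 10.5% of all promoters. Upward were 1 endothelial marker, no marker of the other 3 cell types and, among the members, Egln3, against 7.28% of all promoters. The part of host cells in the values of the members was not tested.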

How the data were processed

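The deposited unit of each table is other than a level: the authors listed 2 positions per peak, where it starts and where it ends, with no height, count or strand. Per the labels and the methods of the study, reads were aligned to mm9 with Bowtie 0.12.7 allowing up to 2 mismatches, uniquely mapped reads were kept, and peaks were called in each library with GeneTrack, whose version and settings are not given in the sources used here. Peaks were read as 1-based, 147 bp, with no overlap within a library.

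Gene models came from GENCODE vM1 and sequence from NCBIM37, the assembly of mm9. Each gene was given the TSS shared by most transcripts, the upstream one on ties. Percentiles are mid-ranks over 22367 genes. The pseudocount was 10% of the mean promoter for promoter ratios and 0.5 peak for gene body ratios. Body intervals are exact Poisson, and ratio intervals exact conditional binomial, at 95%. Both treat peaks as independent, although peaks within a library did not overlap. Libraries were scaled by their own peaks. The alternatives used the uniquely mapped reads that the study lists per library or 1334369 background windows of 1.5 kb that kept 5 kb away from every TSS, after 122109 windows without a peak in any library were left out. In HCPs, some 500-bp interval had 55% or more G and C and a ratio of observed to expected CpG of 0.6 or more, and an ICP was no HCP but reached 0.4 somewhere. States follow the mean of all promoters.

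The members, lists and limits were chosen with earlier results of these data known. Named genes are the 9 members, and 4 targets and 4 partners listed by name. The rule also named the 3 genes nearest to Hif1a over the 8 libraries, which are not reported here. Counting was tested on simulated data. Python 3.11.15, NumPy 2.4.6, SciPy 1.17.1 and pandas 2.3.3 were used. The deposited tables hold no reads per region, so precision is given from numbers of peaks.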

Additional observations from a re-analysis of the deposited data

How the results depend on the processing

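No paired analysis was possible because each line had 1 library per mark and the labels carry no replicate numbers. Counts of members at or above the mean promoter or the median gene body stayed within 1.5 times under each alternative, except for H3K27me3 in LLC-NR, which gave 3 members in a window of 0.5 kb on either side of the TSS. Scaling by uniquely mapped reads changed the promoters past the limit to 8 upward for H3K9ac, 0 upward and 6 downward for H3K27me3 and 0 downward for H3K4me3, and the H3K36me3 bodies to 0 upward and 8 downward. Of the ratios past the limit, it reversed that of Hif3a for H3K36me3 over the body (-0.30) and, for H3K27me3, of Vhl over the body (-0.071), Egln1 at the promoter (-0.18) and over the body (-0.43), and Egln2 over the body (-0.022). Ratios inside the limit changed sign as well: members above 0 for H3K27me3 went from 3 to 1 at promoters and from 6 to 0 over bodies. Of the 72 single ratios, 48 stayed within their counting interval under it and 19 left it, none of them a reversal past the limit. The other 5 were the reversals named above. Among these, Vhl and Egln2 over the body and Egln1 at the promoter stayed within their intervals, and the others left them. All 72 ratios stayed within when scaled by background windows. With a pseudocount of 1 peak, 0 promoters were downward for H3K4me3 and 1 upward for H3K27me3. The window of 0.5 kb on either side gave 0 upward for H3K4me3, and 1 upward and 1 downward for H3K27me3. Any overlap of 1 bp gave 0 upward for H3K4me3 and 1 upward for H3K27me3. The lower limit of 0.32 gave 2 downward for H3K4me3, 2 upward for H3K9ac and 1 downward for H3K27me3, and the limit of 0.58 left 0 H3K36me3 bodies in either direction. Shared positions, with spans added after the data were seen, were found in 2 members at 10 bp (2.03% of all promoters) and in 3 at 30 bp (10.2%). Numbers of peaks saturate at 9 per promoter, and no difference at a member promoter, up to 4 peaks, is resolved by these numbers.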
